A study of Mus musculus with 2 samples.

Results

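The genes described here form the ISG15 conjugation cycle and the interferon-induced PARP group, 10 of the 13281 genes in the deposited table. They were taken by symbol: Isg15, Uba7, Ube2l6, Herc6 and Usp18 for the cycle, and Parp9, Dtx3l, Parp14, Parp10 and Parp12 for the PARP group. All 10 were listed. RNA came from 661W, a mouse line described as cone photoreceptors that was immortalized and arose from a retinal tumor driven by SV40 T antigen, kept in DMEM with serum under normal culture conditions. One culture stably expressed 3xF-TRPM1, full-length human TRPM1 with an N-terminal 3xFLAG tag. The other carried the control vector and is called empty vector. Both were made with the pBABE-Puro retroviral vector, and stable populations were kept by puromycin selection. There was 1 library of each, so every comparison is between 2 libraries. No difference has a replicate check, and anything else in which the 2 cultures differed cannot be told apart from 3xF-TRPM1. The level of TRPM1 itself was not analysed here, so the labels were not checked against it.

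ISG15 is a small ubiquitin-like protein that cells make after type I interferon. It is attached to target proteins by an enzyme chain like that of ubiquitin: Uba7 activates it (E1), Ube2l6 carries it (E2) and Herc6 is the main ligase (E3) in mouse, the role that HERC5 has in human cells. Usp18 takes ISG15 off again and also dampens signalling at the type I interferon receptor. In the second group, Parp14, Parp10 and Parp12 transfer ADP-ribose to proteins, and Dtx3l is a ubiquitin ligase that pairs with Parp9.

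Many interferon-stimulated genes carry an interferon-stimulated response element (ISRE) near their start. The 100 bases before the RefSeq start (GRCm38.p6) are shown for Isg15, whose window held ISRE letters, and for 3 other genes whose windows held none. The windows of Uba7 and Dtx3l also held none and are not printed. Capitals mark matches to the ISRE core, read as GAAA, any 2 bases and GAAA, on either strand, and each sequence runs 5′ to 3′ on the strand of its gene. Isg15 lies at chr4:156200819-156200918 (minus strand), Herc6 at chr6:57580892-57580991 (plus), Ube2l6 at chr2:84798728-84798827 (plus) and Parp12 at chr6:39118350-39118449 (minus).
Isg15: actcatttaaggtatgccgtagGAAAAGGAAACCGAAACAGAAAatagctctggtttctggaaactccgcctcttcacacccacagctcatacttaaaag
Herc6: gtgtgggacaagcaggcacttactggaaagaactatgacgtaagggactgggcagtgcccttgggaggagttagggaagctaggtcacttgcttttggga
Ube2l6: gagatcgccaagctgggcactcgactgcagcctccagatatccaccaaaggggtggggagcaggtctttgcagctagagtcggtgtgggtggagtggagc
Parp12: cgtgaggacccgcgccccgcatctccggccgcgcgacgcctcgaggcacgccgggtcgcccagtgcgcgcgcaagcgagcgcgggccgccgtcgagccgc

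The Isg15 window held 3 overlapping matches, from position -78 to position -57 counted from the start. RefSeq windows, from 250 bases before to 50 after a start, were at hand for 6 of the 10 genes, and Isg15 was the only 1 of these 6 with a match. Of all 32851 windows, 3.44% held the motif at least once and 5 held it 3 or more times. The shorter IRF motif AANNGAAA, which is contained in every ISRE match, was found on either strand in the windows of Isg15, Uba7 and Dtx3l and in 23.9% of all windows. The STAT motif TTCNNNGAA, which reads the same on both strands, was in none of the 6 windows and in 8.30% of all windows. Windows of Usp18, Parp9, Parp14 and Parp10 were not analysed here. A match is a run of letters and not a measured binding site, and a window without a match to these strict letters may still hold a variant site.

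The genes stood at low to moderate levels in both libraries. The deposited values are read counts scaled to library size (CPM), and every gene in the table was above 1 CPM in each library. Worked back from CPM, the 3xF-TRPM1 library had 17869838 reads over the table and the empty vector library 16404444. The 10 genes ranged from 9.30 CPM (Uba7) to 72.5 CPM (Parp9) in 3xF-TRPM1 cells and from 11.0 CPM (Uba7) to 53.6 CPM (Parp9) in empty vector cells. Together they summed to 433 CPM in 3xF-TRPM1 cells and 307 CPM in empty vector cells. The lowest read number was 164, for Uba7 in 3xF-TRPM1 cells, and the highest was 1278, for Parp9 in the same library. In bulk RNA, a change in RNA per cell and a change in the number of cells that make it cannot be told apart.

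**Figure D1:**
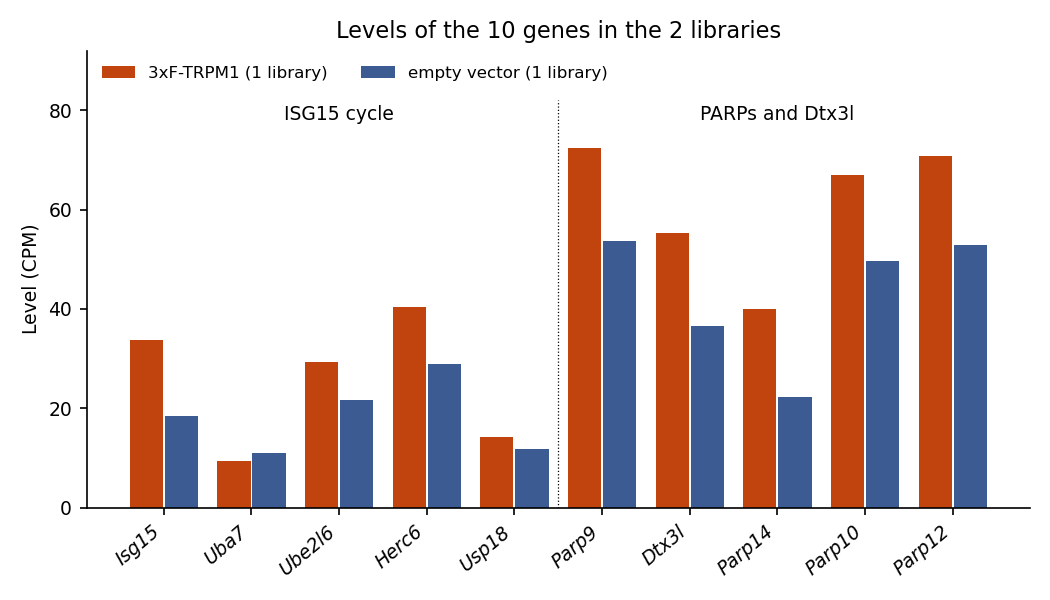
Level in CPM (y axis) of each of the 10 genes (x axis) in the 3xF-TRPM1 library (orange) and the empty vector library (blue), with 1 library per bar and no error bar. The orange bar is the taller one for 9 genes, and for Uba7 it is the shorter one (9.30 against 11.0 CPM).

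Between genes, levels were compared per kilobase of exon, with the gene lengths of the deposited table. For all 10 genes this length equals the union of all annotated exons in GENCODE release M21, so it can be longer than a single transcript. Isg15 was highest, at 44.8 CPM per kb in 3xF-TRPM1 cells and 24.4 CPM per kb in empty vector cells. It stood at percentile 93.0 of all genes per kilobase in 3xF-TRPM1 cells and at percentile 84.5 in empty vector cells. Parp12 followed at 17.7 and 13.3 CPM per kb in 3xF-TRPM1 and empty vector cells, then Parp10, Parp9, Ube2l6, Dtx3l, Usp18, Herc6 and Parp14. Uba7, the E1 enzyme, was last at 1.39 CPM per kb in 3xF-TRPM1 cells and 1.64 CPM per kb in empty vector cells. The order of the 10 levels was the same in both libraries. Neighbours whose 95% counting intervals overlapped were Parp10, Parp9 and Ube2l6 in both libraries, Usp18, Herc6 and Parp14 in 3xF-TRPM1 cells, and Parp12 and Parp10 in empty vector cells. The modifier thus exceeded its E1 per kilobase by 32.2 times in 3xF-TRPM1 cells and by 14.9 times in empty vector cells. These figures depend on the union lengths, 756 bases for Isg15 and 6692 bases for Uba7.

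**Figure D2:**
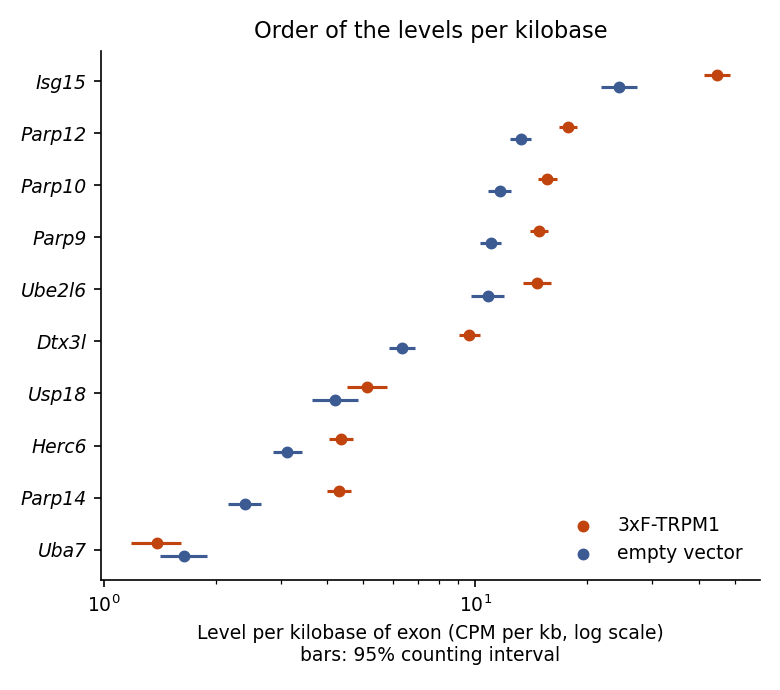
Level in CPM per kilobase of exon (x axis, log scale) for each gene (y axis), with 3xF-TRPM1 in orange above empty vector in blue; bars are 95% exact Poisson intervals, which cover counting error only. Isg15 is highest and Uba7 lowest in both libraries (44.8 and 1.39 CPM per kb in 3xF-TRPM1 cells, 24.4 and 1.64 in empty vector cells).

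To see which of these genes differed between the libraries, log2 fold changes of 3xF-TRPM1 over empty vector were computed with a pseudocount of 0.5 CPM. A gene was called higher at a fold change of at least 1.5 with a 95% exact binomial interval of the read ratio that lay above 1-fold. The interval covers counting error only. Isg15, Parp14 and Dtx3l were called higher, and none of the 10 was called lower. Over all 13281 genes, 3.91% were called higher and 3.07% lower. With scaling by total count this balance turned, to 442 genes higher and 480 lower. The median log2 fold change was 0.43 for the 10 genes and 0.0093 for all genes. Without the fold threshold, a setting chosen after seeing the data, the interval lay above 1-fold for 9 of the 10 genes, as it did for 23.1% of all genes, and it lay below 1-fold for 0 of the 10, against 19.7% of all genes. The same 9 had log2 fold changes above 0, where 51.8% of all genes had them. Among the 5537 genes within the same range of mean level (10.1 to 63.0 CPM), 3.36% were called higher and 23.1% had an interval above 1-fold. The genes were chosen with earlier results of these libraries known, so these counts describe them and are not evidence of their direction.

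**Figure D3:**
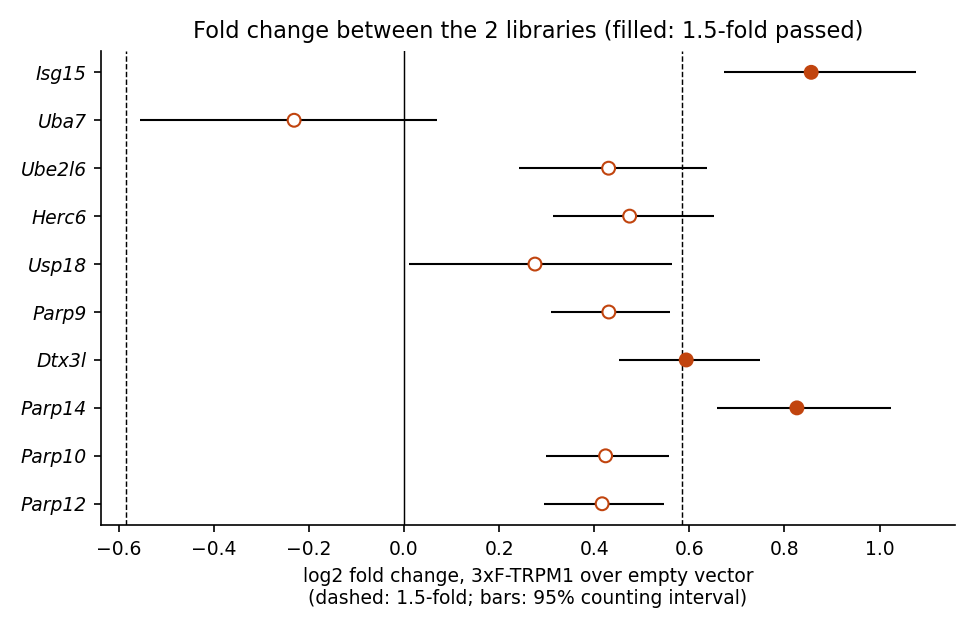
Log2 fold change of 3xF-TRPM1 over empty vector (x axis) for each gene (y axis) with its 95% counting interval (bar); filled points passed the 1.5-fold rule, and dashed lines mark 1.5-fold in either direction. Isg15 (0.86), Parp14 (0.83) and Dtx3l (0.59) are filled, and the interval of Uba7 alone includes 0.

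Isg15, the modifier itself, had the largest difference of the 10. Its position is chromosome 4, 156199424 to 156200818 (GRCm38, as for all positions given here), and it shares no exon base with another annotated gene. It was at 33.8 CPM (597 reads) in 3xF-TRPM1 cells and 18.5 CPM (309 reads) in empty vector cells. On the log2 scale the difference was 0.86, and its 95% interval ran from 0.67 to 1.08 (intervals of the other genes are given in parentheses). This placed it at percentile 98.6 of the log2 fold changes of all genes.

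The conjugating enzymes differed less than Isg15 did. Ube2l6, the E2 on chromosome 2 (84798828 to 84810335), was at 29.3 CPM (516 reads) in 3xF-TRPM1 cells and 21.6 CPM (361 reads) in empty vector cells, a log2 fold change of 0.43 (0.24 to 0.64). Herc6, the ligase on chromosome 6 (57581000 to 57664632), was at 40.5 CPM (714 reads) in 3xF-TRPM1 cells and 29.0 CPM (485 reads) in empty vector cells, a log2 fold change of 0.47 (0.31 to 0.65). Both fell short of 1.5-fold, with intervals above 1-fold. Of the Herc6 exon bases, 13.7% are shared with the annotated transcript Gm45193 on the same strand. How reads there were assigned is not given in the sources used here.

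Uba7, the E1 for ISG15, had the only value below 0. It lies on chromosome 9 (107975505 to 107984060) and was at 9.30 CPM (164 reads) in 3xF-TRPM1 cells and 11.0 CPM (184 reads) in empty vector cells. The log2 fold change was -0.23, with an interval from -0.56 to 0.07 that includes 1-fold. A difference in Uba7 was thus not detected, and the interval does not reach 1.5-fold in either direction. Of the Uba7 exon bases, 3.48% are shared with Gm20661 on the same strand.

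Usp18, the protease that removes ISG15, was at 14.3 CPM (252 reads) in 3xF-TRPM1 cells and 11.7 CPM (196 reads) in empty vector cells. It lies on chromosome 6 (121245906 to 121270917). The log2 fold change was 0.28 (0.01 to 0.56). The lower end sat so near 1-fold that scaling by total count moved it to -0.04, and the interval then included 1-fold.

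The make-up of the cycle was therefore compared within each library, which does not depend on how the libraries were scaled. The ratio of Isg15 reads to Uba7 reads was 3.64 in 3xF-TRPM1 cells and 1.68 in empty vector cells, a log2 change of the ratio of 1.12 (95% exact interval 0.74 to 1.49). The ratio of Isg15 to Usp18 was 2.37 in 3xF-TRPM1 cells and 1.58 in empty vector cells, a log2 change of 0.59 (0.24 to 0.93). Isg15 gained on every enzyme of its cycle. Its ratio to Ube2l6 changed by 0.43 (0.15 to 0.72) and its ratio to Herc6 by 0.39 (0.13 to 0.66) on the log2 scale. Ube2l6, Herc6 and Usp18 in turn gained on Uba7, with log2 changes of the ratio of 0.68 (0.31 to 1.05), 0.72 (0.37 to 1.08) and 0.53 (0.11 to 0.95). That direction follows from Uba7 having the only value below 0. In all, 23 ratios of pairs of genes were computed here and below, and the interval excluded no change for 14 of them, with no correction for their number. The pairs reuse the same genes, and no share over other pairs was computed, so the count is a description only.

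The PARP group contains a gene cluster on chromosome 16. Parp14, Dtx3l and Parp9 lie within 139732 bases (35832874 to 35972605), and Dtx3l and Parp9 run in opposite directions from starts that overlap by 682 bases. Parp14, the macrodomain-bearing mono-ADP-ribosyltransferase, was at 40.02 CPM (706 reads) in 3xF-TRPM1 cells and 22.4 CPM (374 reads) in empty vector cells, a log2 fold change of 0.83 (0.66 to 1.02). Dtx3l, the ubiquitin ligase, was at 55.3 CPM (975 reads) in 3xF-TRPM1 cells and 36.5 CPM (610 reads) in empty vector cells, a log2 fold change of 0.59 (0.45 to 0.75). Dtx3l passed the 1.5-fold line by a narrow margin and fell just below it under both other scalings (0.58 and 0.55).

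Parp9, the partner of Dtx3l, was at 72.5 CPM (1278 reads) in 3xF-TRPM1 cells and 53.6 CPM (897 reads) in empty vector cells, a log2 fold change of 0.43 (0.31 to 0.56), short of 1.5-fold. The pair share 458 exon bases on opposite strands, which is 9.40% of the Parp9 exons and 8.0% of the Dtx3l exons, and whether the counting used strand is not given in the sources used here. The ratio of Dtx3l to Parp9 reads was 0.763 in 3xF-TRPM1 cells and 0.68 in empty vector cells, a log2 change of 0.17 with an interval from -0.03 to 0.36 that includes no change. The ratio of Parp14 to Parp9 changed by 0.41 (0.18 to 0.63), so Parp14 differed more than Parp9. Its ratio to Dtx3l, the nearer gene, changed by 0.24 (0.003 to 0.48), an interval that only just excluded no change. Of the 6 nearest other listed genes around the cluster, 0 passed 1.5-fold, with log2 fold changes from -0.24 to 0.49.

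Parp10 and Parp12, mono-ADP-ribosyltransferases on other chromosomes, matched Parp9 closely. Parp10, on chromosome 15 (76231174 to 76243441), was at 66.9 CPM (1180 reads) in 3xF-TRPM1 cells and 49.7 CPM (832 reads) in empty vector cells, a log2 fold change of 0.42 (0.30 to 0.56). It shares 4.80% of its exon bases with Plec on the same strand, which was more abundant and had a log2 fold change of -0.17. Parp12, on chromosome 6 (39086410 to 39118349), was at 70.9 CPM (1250 reads) in 3xF-TRPM1 cells and 53.0 CPM (886 reads) in empty vector cells, also a log2 fold change of 0.42 (0.29 to 0.55). The ratio of Parp9 to Parp12 differed by 0.01 on the log2 scale (-0.16 to 0.19) and that of Parp10 to Parp12 by 0.01 (-0.17 to 0.19). These intervals bound any unequal change among the 3 genes at about 0.19 in either direction, as far as counting error goes.

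**Figure D4:**
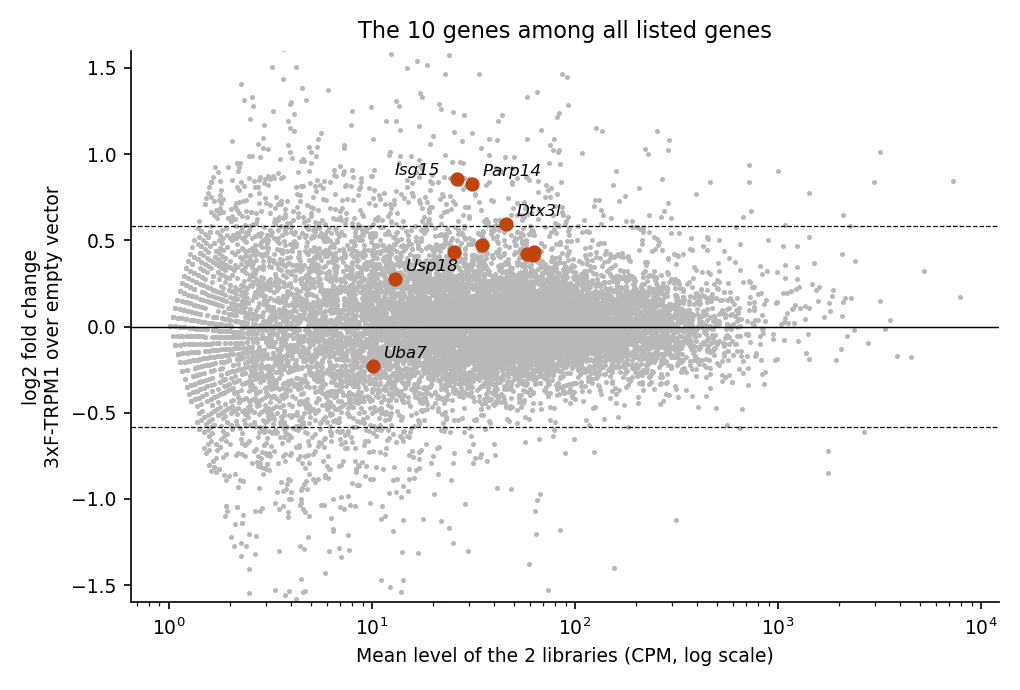
Log2 fold change of 3xF-TRPM1 over empty vector (y axis) against the mean level of the 2 libraries in CPM (x axis, log scale) for all 13281 listed genes (grey) and the 10 genes (orange); dashed lines mark 1.5-fold, and 54 genes beyond 1.6 in either direction fall outside the axis. Isg15, Parp14 and Dtx3l lie on or above the upper dashed line at mean levels of 26.2, 31.2 and 45.9 CPM.

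Next, each gene was set beside the rest of its family, from lists of relatives. Of the 13 other listed ubiquitin-like modifiers, which include ubiquitin, SUMO and NEDD8 genes, 0 passed 1.5-fold, with log2 fold changes from -0.28 (Sumo3) to 0.18 (Atg12) and a median of -0.09. Isg15, at 0.86, lay above all 13. Ubd, a further modifier of this kind, was not among the listed genes. Of the 9 other E1 genes, 0 passed 1.5-fold, the median was -0.03 and Nae1 had the highest value (0.11). Uba1, the main E1 for ubiquitin, was at 472 CPM in 3xF-TRPM1 cells and 550.3 CPM in empty vector cells, a log2 fold change of -0.22 (-0.27 to -0.18), and the ratio of Uba7 to Uba1 changed by -0.02 (-0.34 to 0.29). Of the 32 other listed E2 genes, 0 passed 1.5-fold, from -0.42 (Ufc1) to 0.32 (Ube2e2) with a median of -0.07. Ube2l3, the closest relative of Ube2l6, was at 251.5 CPM in 3xF-TRPM1 cells and 266.9 CPM in empty vector cells, a log2 fold change of -0.09 (-0.15 to -0.03). Ube2l6 gained on it by 0.52 (0.32 to 0.73) on the log2 scale.

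Among the ligases, Herc6 and its relative Herc3 had like values. Herc3 was at 50.8 CPM in 3xF-TRPM1 cells and 37.9 CPM in empty vector cells, a log2 fold change of 0.42 (0.27 to 0.57), and the ratio of Herc6 to Herc3 changed by 0.06 (-0.17 to 0.29). Herc1, Herc2 and Herc4, the other members of the family, lay between -0.06 and 0.04. Of the 3 other listed Deltex ligases, 0 passed 1.5-fold (-0.19 for Dtx2 to 0.25 for Dtx3). Of 45 other USP proteases, 0 passed 1.5-fold and the median was -0.05, with 12 intervals above and 13 below 1-fold. Usp35 had the highest value, 0.52, and Usp11 the lowest, -0.29. Usp18, at 0.28, lay within the range of these 45.

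The remaining PARP family showed no common direction. Of 12 other PARP genes, 0 passed 1.5-fold, 4 had a log2 fold change above 0 and the median was -0.07. Tiparp, a mono-ADP-ribosyltransferase induced by the aryl hydrocarbon receptor, had the highest value, at 60.4 CPM in 3xF-TRPM1 cells and 45.8 CPM in empty vector cells, a log2 fold change of 0.40 (0.26 to 0.53). Zc3hav1, an antiviral protein that binds viral RNA and has no catalytic activity, was at 141.6 CPM in 3xF-TRPM1 cells and 118.9 CPM in empty vector cells, a log2 fold change of 0.25 (0.17 to 0.34). Parp6 was the lowest, at -0.29 (-0.50 to -0.09), and Parp1, the DNA damage sensor, was at -0.06 (-0.13 to 0.02). The ratio of Parp12 to Tiparp changed by 0.02 (-0.16 to 0.21) and that of Parp12 to Zc3hav1 by 0.17 (0.02 to 0.32). By their intervals, 3 of the 12 lay above 1-fold (Tiparp, Zc3hav1 and Parp2, the last at 0.23), 4 lay below it and 5 included it.

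**Figure D5:**
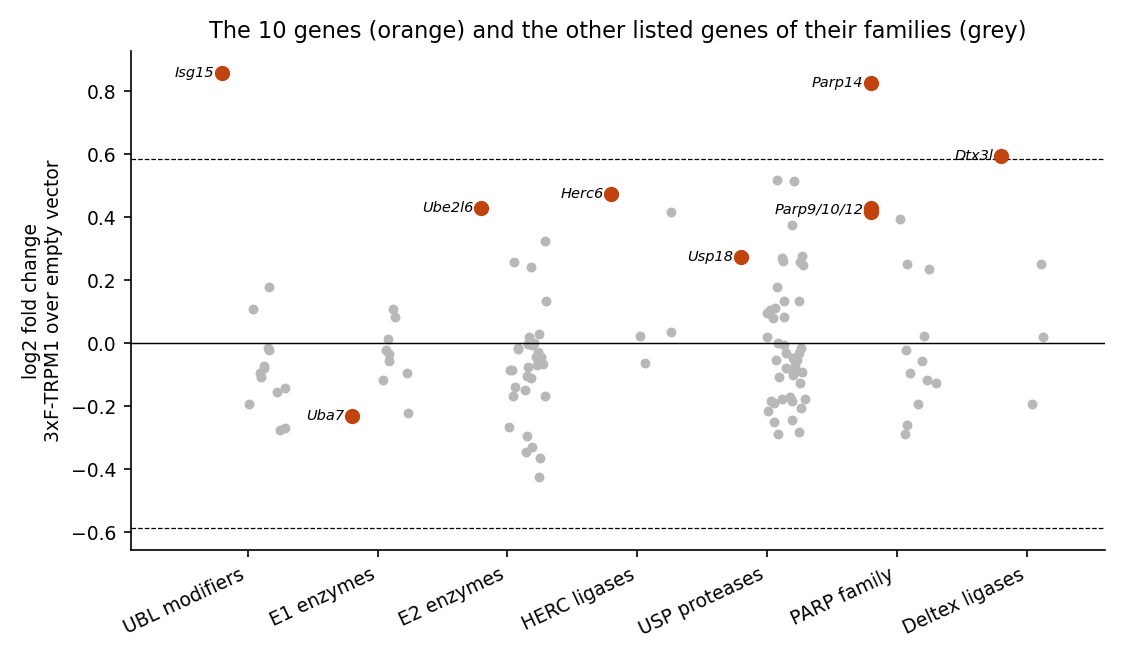
Log2 fold change of 3xF-TRPM1 over empty vector (y axis) for the 10 genes (orange) and the other listed genes of their 7 families (grey; positions across each column are spread at random); dashed lines mark 1.5-fold. UBL stands for ubiquitin-like. Isg15 (0.86), Parp14 (0.83) and Dtx3l (0.59) are the only points on or above the upper line, and 0 grey points pass it.

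Other enzymes reported to act on ISG15 were also listed. Of 9 such genes, 7 of which are among the 45 USP proteases above, 0 passed 1.5-fold and the median was -0.08. Trim25, an interferon-induced ligase that is also in the list of interferon-stimulated genes used below, was at 99.3 CPM in 3xF-TRPM1 cells and 76.7 CPM in empty vector cells, a log2 fold change of 0.37 (0.27 to 0.48), close to the highest of the 9, which was Usp2 at 0.38 (0.07 to 0.72). The lowest was Usp13, at -0.24 (-1.09 to 0.46) from 28 reads in 3xF-TRPM1 cells and 33 in empty vector cells. Of the enzymes that remove ADP-ribose from proteins or cut its polymers, 6 of 7 were listed and 0 passed 1.5-fold. They ran from -0.43 for Macrod1 (-0.84 to -0.08) to 0.47 for Macrod2 (0.11 to 0.91), with a median of 0.11.

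Transcription factors that act on these genes after interferon were set beside them. Stat2 and Irf9 act together at the ISRE, and Irf7 and Irf1 bind related sites. Of these, Stat2 (0.84) and Irf1 passed 1.5-fold, while Irf9 (0.58, 0.47 to 0.70) and Irf7 (0.51, 0.33 to 0.71) fell short of it with intervals above 1-fold. Stat2 was at 110.0 CPM in 3xF-TRPM1 cells and 61.2 CPM in empty vector cells, and the ratio of Isg15 to Stat2 reads changed by 0.03 on the log2 scale (-0.20 to 0.26). The ratio of Parp14 to Stat2 changed by -0.01 (-0.22 to 0.21). Isg15 (0.86) and Parp14 (0.83) had the log2 fold changes closest to that of Stat2, so the small changes of these ratios restate that closeness. With 2 libraries, likeness of pattern between genes cannot be measured. The other genes of the group ran from -0.23 (Uba7) to 0.59 (Dtx3l), and their ratios to Stat2 were not computed. Irf1 was at 66.3 CPM in 3xF-TRPM1 cells and 43.0 CPM in empty vector cells, a log2 fold change of 0.62 (0.49 to 0.76). Isg15 gained on Irf9 by 0.29 (0.05 to 0.52).

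Of 49 other interferon-stimulated genes, 45 were listed. Of these, 20 were called higher and 0 lower, and 36 had intervals above 1-fold, with a median of 0.54 and a range from -0.16 (Psmb10) to 1.61 (Oas2). After Oas2, the largest values were those of Ifi27l2a (1.58), Ifit3b (1.29) and Gbp3 (1.24), of which Ifit3b has a near-identical copy, so its reads may be split uncertainly. The median of the 10 genes, 0.43, was below 0.54. Of 19 interferon genes, 0 were among the listed genes, so their RNA was not analysed here. The 7 genes for interferon receptor chains and JAK kinases had a median of 0.09 and 0 passed 1.5-fold. Tyk2, a kinase of the type I receptor, was the lowest of them at -0.41 (-0.64 to -0.21), and Ifngr2 the highest at 0.19.

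Genes used as markers of cell types were examined as well, and some of them differed between the libraries. Of 13 macrophage and leukocyte markers, 2 were listed (Cd68 at -0.63 and Cd14 at -0.80), which summed to 9.07 CPM in 3xF-TRPM1 cells and 15.9 CPM in empty vector cells, and both were called lower. The defining markers Ptprc, Adgre1 and Csf1r were not among the listed genes, and neither was Itgal, a chain of the LFA-1 receptor for secreted ISG15. Itgb2, the other chain, was at 6.69 CPM in 3xF-TRPM1 cells and 7.71 CPM in empty vector cells. Of 10 fibroblast and matrix markers, 9 were listed and 8 were called higher, with the largest values for Fbln1 (1.06), Dcn (0.99), Col3a1 (0.93) and Col1a1 (0.90), and the 9 summed to 21750 CPM in 3xF-TRPM1 cells and 13484 CPM in empty vector cells. Of 9 Müller glia markers, 5 were listed, and Rlbp1, Gfap, Aqp4 and Kcnj10 were not. Apoe (1.21), Clu (1.01) and Slc1a3 (0.64) were called higher, while Glul (-0.14) and Vim (0.003) did not pass. The 5 summed to 1731 CPM in 3xF-TRPM1 cells and 1319 CPM in empty vector cells. Of 14 cone phototransduction genes, Gnat2 alone was listed, at 2.49 CPM in 3xF-TRPM1 cells and 2.57 CPM in empty vector cells, so the cone opsins that define the labelled cell type have no value here. Of 7 rod genes only Pde6b was listed, at 1.13 CPM in 3xF-TRPM1 cells and 1.79 CPM in empty vector cells, and of 7 markers of retinal pigment epithelium 2 were listed, Pmel and Mitf, with 0 past 1.5-fold. Whether such differences between the cultures had a part in the values of the 10 genes was not tested.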

How the data were processed

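Libraries were made from total RNA with the KAPA mRNA HyperPrep kit and sequenced on an Illumina NovaSeq instrument. Per the labels and methods, the authors used HISAT2 2.1.0 with GRCm38 for alignment, featureCounts 2.0.0 for counting, and then edgeR 3.28.1 and a package named as DESeq 1.40.0. How the values were scaled, which annotation was counted and whether strand was used is not given in the sources used here. The authors deposited CPM values for 13281 genes. In each library all CPM values were multiples of a single step (100% of values within 0.01 of a step), from which reads were inferred. Every read number, ratio and interval here rests on that inference, since the deposited values hold no counts and begin well above 1 read; the lowest stood for 18 reads in the 3xF-TRPM1 library and 17 in the empty vector library. The effective library sizes were 17639743 reads for 3xF-TRPM1 and 16728172 reads for empty vector, and the 3xF-TRPM1 size is below the reads it lists, so scaling was not to the total count. The fold changes, p-values and adjusted p-values of the authors and their table of gene set enrichment were not used, nor were 2 further columns that hold values per library.

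Filtering at a mean of 1 CPM removed 0 genes. Calls and intervals are as given in the text (pseudocount 0.5 CPM, 1.5-fold, 95% exact Clopper-Pearson interval); ratios of 2 genes used the conditional odds ratio with its exact interval, and levels per kilobase an exact Poisson interval. No test between conditions is possible with 1 library each, and no p-value is given. All of these intervals cover counting error only, and PCR duplicates may make them too narrow. On simulated reads for the 13281 genes, with counting noise alone, the procedure called 92% of 50 genes made 2-fold higher, 96% of 50 made 2-fold lower and 0.466% of 13081 unchanged genes, which is not the rate of false calls between 2 cultures. Alternatives were 2 other scalings (median-of-ratios, total count), 2 pseudocounts, 2 filters and a 2-fold threshold.

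The 10 genes and all lists were chosen with earlier results of these data known. The text names the 10 genes, 5 closest relatives, and per list up to 4 genes past 1.5-fold or else the highest and the lowest; other genes were added for their function or position. One gene of the list of interferon-responsive factors is not reported here. Of the listed identifiers, 13275 matched GENCODE release M21 (GRCm38), which gave coordinates and exon overlaps. Promoter windows are from RefSeq (GRCm38.p6). Computations ran in Python 3.11.15 with scipy 1.17.1, numpy 2.4.6 and pandas 2.3.3, and figures in matplotlib 3.10.9.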

Additional observations from a re-analysis of the deposited data

How the results depend on the processing

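Of the 40 values of single genes under the 2 other scalings and the 2 other pseudocounts, 38 stayed on their side of the 1.5-fold rule and 0 changed sign; the filters leave the value of a single gene as it is. The other 2 were of Dtx3l, which fell below 1.5-fold with median-of-ratios size factors (0.584) and with the total count of the listed genes (0.547), leaving 2 of the 10 genes called higher, against 504 of all genes with the first (3.79%) and 442 with the second (3.33%). The scalings moved the median of all genes by -0.0093 and -0.045 on the log2 scale. With a 2-fold threshold 0 of the 10 genes, 115 genes higher and 117 genes lower passed. At a mean of at least 5 CPM, 351 of 10857 genes were higher and 217 lower. With the interval alone and no fold threshold, a setting added after seeing the data, 9 of the 10 genes, 3070 genes higher and 2615 genes lower passed, and under total count scaling the 9 became 8, without Usp18, and the 3070 became 2385. No paired analysis was possible because each condition has 1 library, and for the same reason no library could be left out. Uba7 and Usp18, with 164 to 252 reads in a library, have the widest intervals of the 10.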

Other observations

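The listed genes next to the 10 on their chromosomes were examined as a description of the surrounding regions, 3 on each side of each gene. The 48 neighbours outside the group had a median log2 fold change of 0.0049, from -0.81 to 0.79, and 11 had an interval above and 10 an interval below 1-fold. Past 1.5-fold were AW011738 beside Isg15 (2.95 CPM in 3xF-TRPM1 cells and 1.49 CPM in empty vector cells, log2 fold change 0.79), Ypel4 near Ube2l6 (0.62) and Nrbp2 near Parp10 (0.61), all higher, and Gm44260 near Usp18 (-0.81), which was lower. AW011738 lies 2486 bases beyond the start of Isg15 and stood near the lower limit of the table. Gm44260 also stood near that limit, at 1.08 CPM in 3xF-TRPM1 cells and 2.27 CPM in empty vector cells. Some neighbours lie far off: Ypel4 is 60173 bases from Ube2l6, Nrbp2 139547 from Parp10 and Gm44260 330913 from Usp18. Apobec1, counted as a neighbour of Usp18, is 1306875 bases from it.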
